A study of Mus musculus with 6 samples.

Results

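The miR-29 family was examined in extracellular vesicles (EVs) of mouse cortical astrocytes and of neural stem cells (NSCs). The members were the mature rows of the count table named mmu-miR-29a-3p, mmu-miR-29b-3p, mmu-miR-29c-3p and mmu-miR-29b-1-5p (mmu marks mouse and is dropped from here on), chosen by name, which are 4 of 902 mature miRNA rows and of 61949 rows in all. All 4 were present in the table. EVs are membrane-bound particles that cells release with RNA and protein inside. Both groups came from CD1 mice and held 3 small RNA libraries each: the group named Astrocytes came from EVs of primary cortical astrocytes, and the group named Neonatal_NSC came from EVs of primary NSCs of the subventricular zone. No genotype, treatment or age series was compared, so the table holds no measure of astrocyte maturation itself. The astrocytes were taken from dorsal cortices of pups at postnatal day 4 and shaken to deplete microglia and then oligodendrocytes. They were passaged in medium described as exosome-free and then plated in serum-containing medium. The EVs were pelleted from this last medium by ultracentrifugation. How the NSCs were cultured, and at what age they were taken beyond the word neonatal, is not stated in what was read here. Replicates 1 to 3 are called A1 to A3 for astrocyte EVs and N1 to N3 for NSC EVs. Nothing in the labels ties a replicate to a culture or an animal of its own, and every p-value therefore measures the spread between these libraries alone, which may be technical.

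MicroRNAs are short RNAs that load into Argonaute and repress the mRNAs they pair with, mainly through their seed. The miR-29 family is known for repressing collagens and other matrix genes, the de novo DNA methyltransferases and pro-apoptotic BH3-only genes. In brain its level rises as tissue matures after birth, and it is found in astrocytes as well as neurons. A hairpin precursor yields a guide arm, which is kept, and a passenger arm, which is mostly degraded.

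The sequences show why the 3 guide arms count as a family and how closely their reads resemble each other. They are the RefSeq mature sequences on GRCm38.p6, written 5′ to 3′, with the seed (bases 2 to 8) in capitals.
miR-29a-3p: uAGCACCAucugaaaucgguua
miR-29b-3p: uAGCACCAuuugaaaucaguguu
miR-29c-3p: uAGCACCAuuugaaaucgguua
miR-29b-1-5p: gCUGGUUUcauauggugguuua
The guide arms share the seed AGCACCA, and among 1679 mature mouse miRNA names with a sequence in RefSeq only these 3 hold it at bases 2 to 8. The passenger arm miR-29b-1-5p has another seed, CUGGUUU, which no other mature name shares. Counting positions from 1 at the 5′ end, miR-29a-3p and miR-29c-3p differ by the substitution C10U alone. From miR-29c-3p to miR-29b-3p there are 3 substitutions, G18A, U21G and A22U, and miR-29b-3p has 1 base more. The 3′ end of miR-29b-3p carries AGUGUU, a hexamer known as a nuclear import signal of miR-29b. On the given strand 12 of 1679 mature miRNAs (0.715%) hold these letters anywhere and 2 hold them at the 3′ end.

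The genes lie in pairs. On chromosome 6 of mm10, minus strand, the table places miR-29a-3p from 31062673 to 31062694 and miR-29b-1-5p from 31063067 to 31063088, in the GENCODE vM21 miRNA genes Mir29a and Mir29b-1, whose hairpins are 275 bases apart. On chromosome 1, plus strand, it places miR-29b-3p from 195037091 to 195037113 (Mir29b-2) and miR-29c-3p from 195037600 to 195037621 (Mir29c), with 426 bases between the hairpins. Both of these lie in an exon of the noncoding RNA A330023F24Rik, and on the opposite strand in the exon that holds an untranslated region of Cd46. The miR-29b-3p sequence also stands on chromosome 6, from 31063025 to 31063047 in Mir29b-1, although the table lists it once. The hairpin of that locus is shown because it gives rise to both miR-29b arms measured here, and capitals mark miR-29b-1-5p and then miR-29b-3p.
mir-29b-1: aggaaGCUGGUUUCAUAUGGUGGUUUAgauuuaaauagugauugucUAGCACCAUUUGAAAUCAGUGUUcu

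The libraries held 44620985 to 111851274 counts in all, of which 177093 to 399211 were on mature miRNA rows. Levels are given as CPM, counts per 1000000 mature miRNA counts scaled by TMM (a factor that aligns the bulk of miRNAs between libraries). A single count was worth 3.15 to 6.19 CPM, and a count of 0 allows 3 counts, or 9.44 to 18.6 CPM, so low members were measured coarsely. These floors and all intervals below cover counting error only. A3 stood apart from its group: over 256 tested miRNAs its log2 CPM correlated with A1 and A2 at 0.805 and 0.816, while A1 and A2 correlated at 0.933 and NSC EV libraries at 0.914 to 0.932. The main values are therefore given also without it. Fragments on the rows of astrocyte marker genes are given as counts per 1000000 non-hairpin counts. They summed to 26.4 to 32.1 in A1 to A3 and 29.2 to 49.9 in N1 to N3. Of 8 tested genes Gfap and Aldoc were called higher in astrocyte EVs and 0 lower, beside 6.02% and 3.39% of sense RefSeq rows. Slc1a3, Slc1a2 and Aldh1l1 went the other way (log2 fold changes -1.15, -0.80 and -0.18), Aqp4, S100b and Glul were above 0, and none of these was called. Without A1 or A2, 0 non-hairpin rows were called higher. Of 8 NSC marker genes (17.0 to 26.3 in NSC EVs, 19.0 to 23.6 in astrocyte EVs), 6 were tested and 0 were called by edgeR. Of these, 2 had an unadjusted edgeR p under 0.05, as did 5116 of 17739 sense RefSeq rows. They went opposite ways: Dlx2 was higher in astrocyte EVs (log2 fold change 1.59) and Dcx lower (-0.78).

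MiR-29a-3p, the most abundant member, was higher in astrocyte EVs than in NSC EVs. It had 184, 212 and 45 counts in A1 to A3, which are 874, 1068 and 142 CPM. In N1 to N3 it had 30, 13 and 2 counts, which are 101, 58.4 and 12.4 CPM. Every astrocyte EV library lay above every NSC EV library, but A3 was closer to N1 than to its own group. The means were 695 ± 489 CPM and 57.1 ± 44.1 CPM (SD, n = 3 each), and astrocyte EV libraries differed among themselves by 7.54-fold. The log2 fold change, astrocyte EVs minus NSC EVs as throughout, was 3.55 (standard error, SE, 0.95), or 11.7-fold, with an adjusted p = 0.0186 (quasi-likelihood test of edgeR, Benjamini-Hochberg adjustment) over 256 mature miRNAs. Among these, 22.3% were called higher, and 28.5% had all astrocyte EV libraries above all NSC EV libraries. By mean CPM miR-29a-3p ranked 93 of 902 in astrocyte EVs and 234 of 902 in NSC EVs. The value was 3.76 (edgeR adjusted p = 0.00242) without A3, and the call was lost without A2 (adjusted p = 0.0643) and without N2 (0.122) or N3 (0.0510). It was also lost when library sizes came from the non-hairpin rows (2.51, adjusted p = 0.0592). In bulk EV RNA, fewer vesicles of a kind and less RNA per vesicle cannot be told apart.

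**Figure D1:**
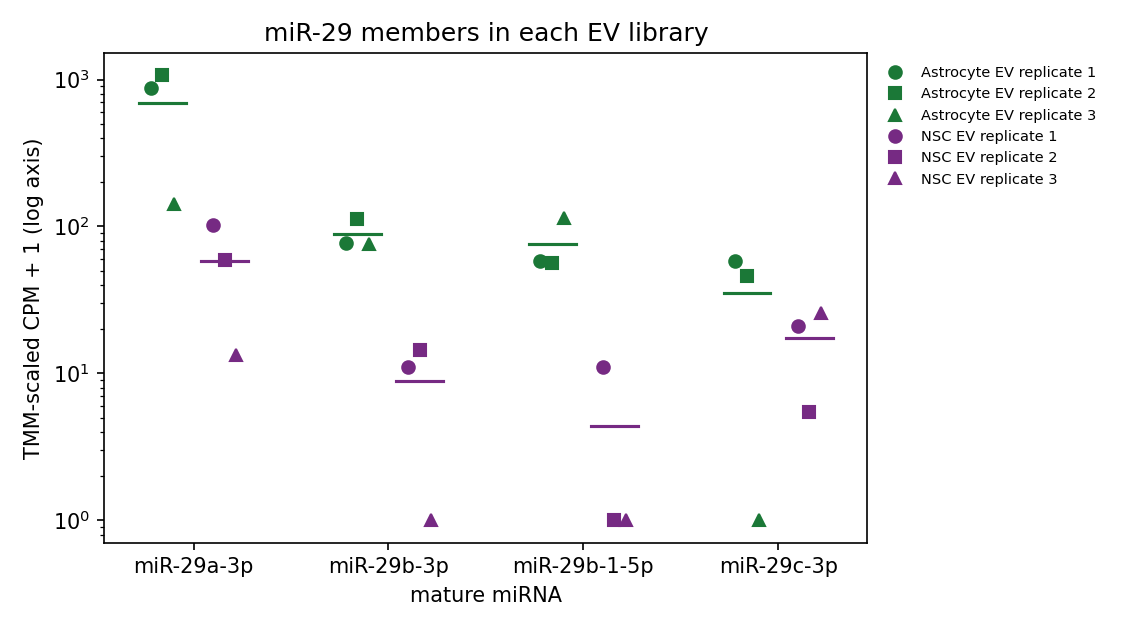
TMM-scaled CPM plus 1 on a log axis for each miR-29 member, where each point is a library (astrocyte EVs green, NSC EVs purple) and each bar a group mean. For miR-29a-3p, miR-29b-3p and miR-29b-1-5p the green points lie above the purple ones, and for miR-29c-3p they overlap, with A3 at 0 CPM.

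MiR-29b-3p, the guide arm that Mir29b-1 and Mir29b-2 both encode, was also higher in astrocyte EVs, at a level far below miR-29a-3p. It had 16, 22 and 24 counts in A1 to A3 (76.0, 111 and 75.5 CPM) and 3, 3 and 0 counts in N1 to N3 (10.1, 13.5 and 0 CPM, where 0 of 177093 counts allows up to 18.6 CPM). The groups did not overlap, and A3 was level with A1. The means were 87.5 ± 20.2 CPM and 7.85 ± 7.01 CPM (SD, n = 3 each), and the difference was 3.30 ± 0.86 (SE) on the log2 scale (edgeR adjusted p = 0.0164). In all, 62 counts stood against 6, a ratio of 9.70 after scaling (95% exact counting interval 4.21 to 27.5). The log2 fold change was 3.17 without A3, and the call was lost without A2 (adjusted p = 0.0640) or N1 (0.0649), N2 (0.0649) or N3 (0.0555). Library sizes from the non-hairpin rows gave 2.41 (adjusted p = 0.0570), again not called.

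MiR-29b-1-5p, the passenger arm of the chromosome 6 locus, was also higher in astrocyte EVs, where its level was close to that of the guide arm. It had 12, 11 and 36 counts in A1 to A3 (57.0, 55.4 and 113 CPM) and 3, 0 and 0 counts in N1 to N3 (10.1 CPM in N1, with 13.5 and 18.6 CPM allowed by the counts of 0 in N2 and N3). The groups did not overlap, and here A3 was the highest library, whereas for miR-29a-3p it was the lowest of its group. The means were 75.2 ± 33.0 CPM and 3.35 ± 5.81 CPM (SD, n = 3 each). With 59 counts against 3, the ratio after scaling was 18.5 with a 95% exact counting interval of 6.02 to 92.1. The fit gave 4.06 ± 1.07 (SE) on the log2 scale (edgeR adjusted p = 0.0177), and 3.41 (adjusted p = 0.0262) without A3. The call was lost without N2 (adjusted p = 0.0844) or N3 (0.0892), and the row did not pass the filter when library sizes came from the non-hairpin rows. Without N1 the fit gave 7.21 against libraries at 0, which is no bound.

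**Figure D2:**
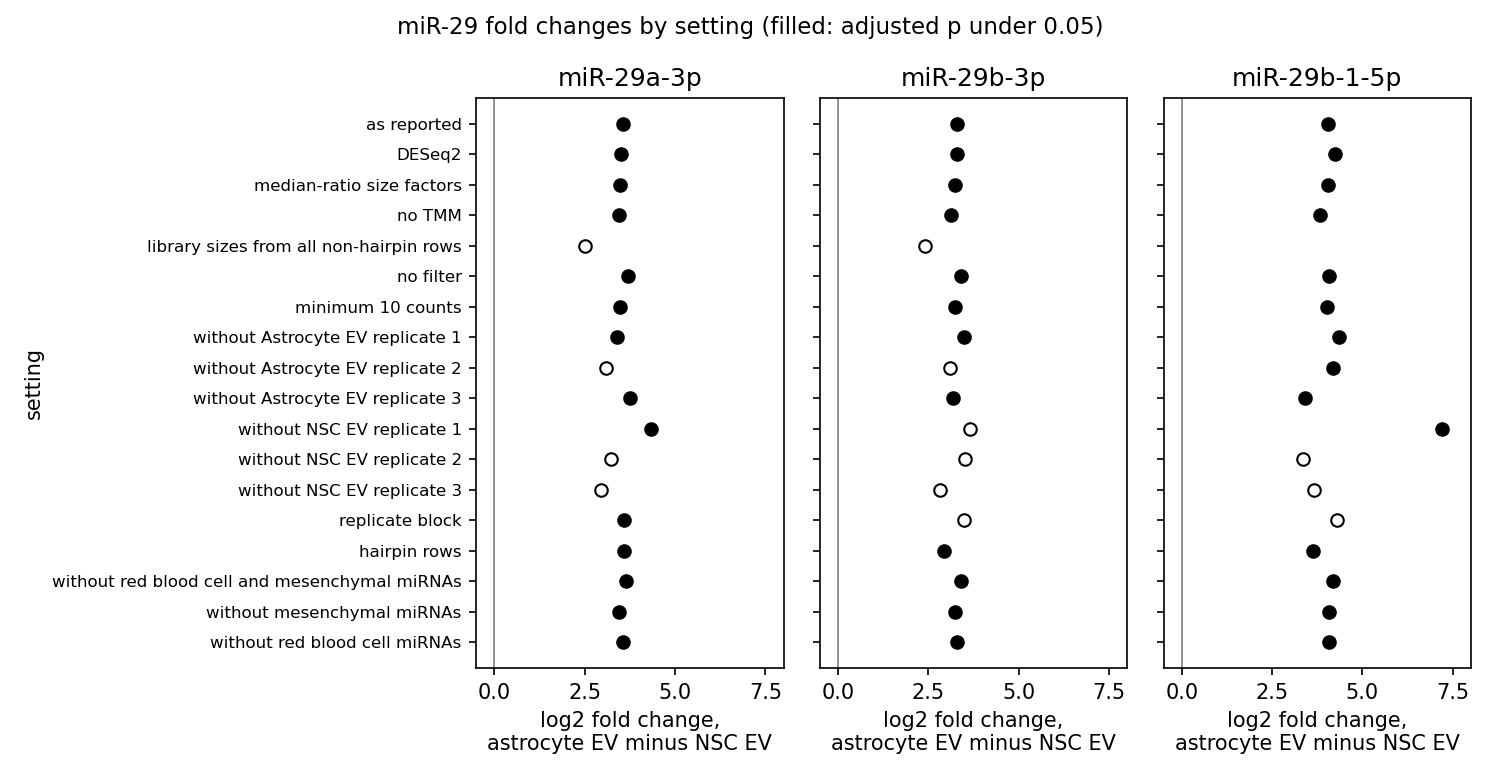
Log2 fold change, astrocyte EVs minus NSC EVs, of each called member (columns) under each processing setting (lines), filled where the adjusted p was under 0.05 and open where it was not; hairpin rows show mir-29a, mir-29b-2 and mir-29b-1. All points lie above 0, and the open ones include library sizes taken over the non-hairpin rows (2.51 for miR-29a-3p) and the fits without N2 or N3.

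MiR-29c-3p, the guide arm of the chromosome 1 locus, was low in both EV types and did not pass the low-count filter, so it was not tested. It had 12, 9 and 0 counts in A1 to A3 (57.0, 45.3 and 0 CPM) and 6, 1 and 4 counts in N1 to N3 (20.1, 4.49 and 24.7 CPM). The groups overlapped, because A3 had 0 of 399211 counts, which allows up to 9.44 CPM. The means were 34.1 ± 30.1 CPM and 16.5 ± 10.6 CPM (SD, n = 3 each). The scaled ratio of 21 to 11 counts was 1.79 (95% exact counting interval 0.826 to 4.12), so a difference was not resolved. Depth was not the only limit, since A3, with the most mature counts, had 0 where A1 and A2 had 12 and 9. Without a filter its log2 fold change was 1.23 with an edgeR adjusted p = 0.547. The 3 members that passed the filter did so through the astrocyte EV libraries, where they were high, so the count of 3 called among 3 tested is no measure of how the family moved.

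The other arms of these loci were near the limit of detection. MiR-29b-2-5p had 0, 6 and 0 counts in astrocyte EVs and 0, 1 and 2 in NSC EVs. MiR-29c-5p had 7 counts, all in A3, the library in which its guide arm had 0. The hairpin rows show how reads with more than 1 locus were entered. The mir-29b-1 row equaled the sum of miR-29b-3p and miR-29b-1-5p in 5 of 6 libraries (28, 33 and 60 counts in astrocyte EVs) and differed by 1 in N2. The mir-29b-2 row equaled the sum of miR-29b-3p and miR-29b-2-5p in 6 of 6. The miR-29b-3p counts thus stand in full on both hairpins, and these counts cannot be assigned to chromosome 6 or chromosome 1. Tested among hairpin rows, mir-29a had a log2 fold change of 3.59 (edgeR adjusted p = 0.0199), mir-29b-1 of 3.62 (adjusted p = 0.0114) and mir-29b-2 of 2.92 (adjusted p = 0.00697), and these repeat the reads of the mature rows.

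Summed, the 4 members made up 0.0902% ± 0.0553 of the mature miRNA counts of astrocyte EVs against 0.00931% ± 0.00645 for NSC EVs (SD, n = 3 each). In A1 to A3 the share was 0.123% (95% Wilson interval 0.108% to 0.140%), 0.121% (0.107% to 0.137%) and 0.0263% (0.0217% to 0.0318%). In N1 to N3 it was 0.0162% (0.0120% to 0.0219%), 0.00835% (0.00522% to 0.0134%) and 0.00339% (0.00155% to 0.00739%). A3 was the lowest of its group, and its interval overlapped that of N1 by a narrow margin. That overlap depends on the denominator, which holds both of the near-equal rows miR-486a-5p and miR-486b-5p. With the red blood cell and mesenchymal miRNAs listed below left out of the denominator, the share was 0.0316% in A3 and 0.0163% in N1. As log2 ratio of the group means the shares differed by 3.28, and by 3.71 without A3.

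The make-up of the family counts differed between astrocyte EV libraries. MiR-29a-3p held 82.1% (95% Wilson interval 76.6% to 86.6%) of the counts of the 4 members in A1, 83.5% (78.4% to 87.5%) in A2 and 42.9% (33.8% to 52.4%) in A3. In A3 the rest was miR-29b-3p (22.9%) and miR-29b-1-5p (34.3%). In N1 and N2 miR-29a-3p held 71.4% (56.4% to 82.8%) and 76.5% (52.7% to 90.4%), and N3 had only 6 family counts. Of the counts on miR-29b-3p and miR-29b-1-5p, the latter held 42.9%, 33.3% and 60% in A1 to A3 and 3 of 9 counts in NSC EVs. This is not the whole passenger share. The miR-29b-3p counts can come from either locus and cannot be assigned, and miR-29b-2-5p (0, 6 and 0 counts in A1 to A3, 0, 1 and 2 in N1 to N3) is left out.

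**Figure D3:**
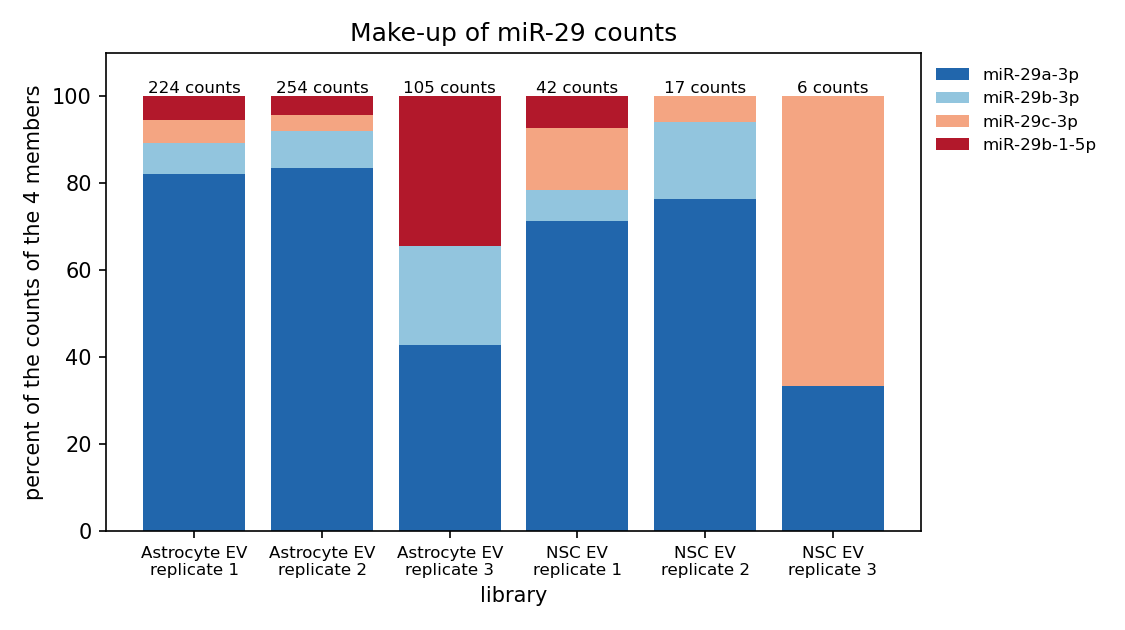
Percent of the counts of the 4 miR-29 members held by each member, with 1 bar per library and the number of family counts above it. MiR-29a-3p fills over 80% of the bar in A1 and A2 and 42.9% in A3, and the NSC EV bars rest on 42, 17 and 6 counts.

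Whether the members changed unequally was asked from 3 ratios of members within a library (0.5 counts added to each). The log2 ratio of miR-29a-3p to miR-29c-3p was 4.96 ± 1.38 in A1 to A3 and 1.52 ± 2.10 in N1 to N3 (SD, n = 3 each), with every astrocyte EV library above every NSC EV library (two-sided exact permutation p = 0.1, below which 3 against 3 cannot go, and adjusted p = 0.3 over the 3 ratios). The log2 ratio of miR-29b-3p to miR-29a-3p was -2.54 ± 1.43 and -2.46 ± 0.60 (exact permutation p = 0.9, adjusted 0.9, n = 3 each), a difference of -0.07 that was -0.90 without A3. The log2 ratio of miR-29b-3p to miR-29b-1-5p was 0.26 ± 0.78 and 0.94 ± 1.62 (exact permutation p = 0.7, adjusted 0.9, n = 3 each), a difference of -0.67. Both of the latter had overlapping groups, and at counts of 0 to 3 in NSC EVs their values depend on the added count: with 1 count added the differences were -0.40 and -0.41. The ratio of miR-29a-3p to miR-29c-3p depends on it as well. Its highest value, 6.51 in A3, rests on 0 counts of miR-29c-3p, and its difference of 3.44 became 3.18 with 1 count added.

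The miRNAs whose pattern over the 6 libraries was most like that of miR-29a-3p were sought among 197 tested miRNAs with a mean of at least 100 CPM. MiR-152-3p (Pearson r = 0.991 of log2(CPM + 1)), which like miR-29 is known to repress a DNA methyltransferase, had 1753, 1884 and 494 CPM in A1 to A3 and 476, 350 and 192 CPM in N1 to N3. MiR-155-5p (r = 0.972), a miRNA induced in inflammation, had 1929, 2509 and 699 CPM and 282, 247 and 142 CPM. MiR-199b-3p (r = 0.967), a miRNA of mesenchymal cells whose counts equal those of miR-199a-3p in every library, had 39754, 42916 and 2729 CPM and 949, 467 and 285 CPM. All 3 stood in the same order of libraries as miR-29a-3p, with A2 highest and N3 lowest. These correlations describe 6 libraries that fall into 2 groups and share their composition.

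Markers of other cell types moved with the groups. The 7 listed mesenchymal miRNAs summed to 92249, 98509 and 6650 CPM in A1 to A3 and to 860 to 1864 CPM in NSC EVs, and the 3 tested (miR-143-3p and the equal rows of miR-199a-3p and miR-199b-3p, entered once in the sum) were higher. Of the listed rows, miR-214-3p and miR-145a-3p were at 0 in NSC EVs, and miR-214-3p was at 0 in A3 as well. Others were present in NSC EVs: miR-145a-5p had 8, 5 and 0 counts in N1 to N3, and miR-143-3p stood at 508 to 885 CPM. The sum was thus high in the astrocyte EV libraries where miR-29a-3p was high and low in A3. The 5 red blood cell miRNAs (with miR-486a-5p and its near-equal row miR-486b-5p entered once, as miR-486a-5p) summed to 19435, 40976 and 101933 CPM in A1 to A3 and to 930 to 1640 CPM in NSC EVs, with A3 the highest, as for miR-29b-1-5p. All 5 were higher, and miR-451a was at 0 in NSC EVs. MiR-451a, miR-144-3p and miR-144-5p passed the low-count filter only through the astrocyte EV libraries. The 4 markers of microglia and white blood cells summed to 162 to 705 CPM in A1 to A3 and 70.4 to 144 CPM in N1 to N3, with miR-142a-3p and miR-223-3p at 0 in NSC EVs and miR-150-5p at 0 in astrocyte EVs, and of 2 tested 1 was higher and 1 lower. Those of endothelial cells (69.2 to 191 against 934 to 1730 CPM) and neurons (12.6 to 176 against 583 to 1519 CPM, with miR-124-3p at 0 in astrocyte EVs) were lower in astrocyte EVs, 2 of 2 tested in each list. MiR-124-3p, miR-126a-3p (0, 0 and 4 counts in A1 to A3) and miR-150-5p passed the filter only through the NSC EV libraries. MiR-126a-5p and miR-137-3p also reached the number of libraries that the filter requires only with NSC EV libraries. MiR-142a-5p, the higher marker of microglia and white blood cells, reached it only with astrocyte EV libraries. Calls of rows that passed through 1 group are no measure of how a list moved. Among all tested miRNAs 22.3% were higher and 25.8% were lower. Those of oligodendrocytes overlapped (10.1 to 126 against 53.7 to 80.4 CPM, with miR-219a-5p at 0 in astrocyte EVs), and the 1 tested was not called. With the mesenchymal and red blood cell miRNAs left out of the table the log2 fold change was 3.65 for miR-29a-3p, 3.41 for miR-29b-3p and 4.18 for miR-29b-1-5p. This takes out their weight on the scaling, and whether such cells were a source of miR-29 was not tested.

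**Figure D4:**
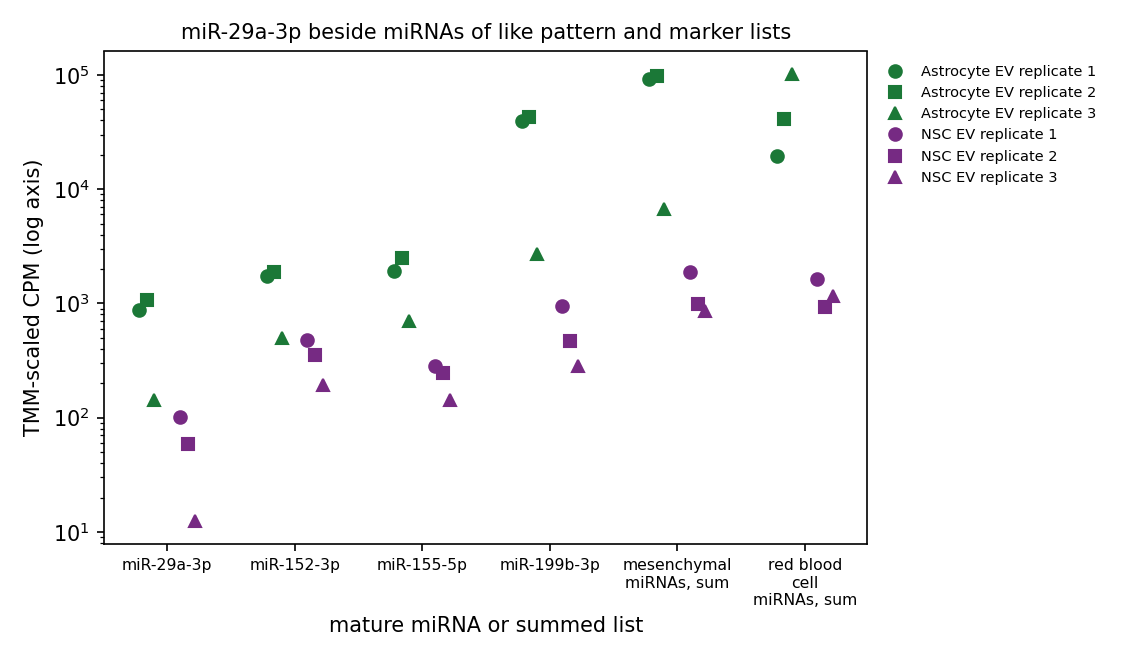
TMM-scaled CPM on a log axis for miR-29a-3p, the 3 miRNAs of most like pattern and the summed mesenchymal and red blood cell miRNAs, where each point is a library (astrocyte EVs green, NSC EVs purple). A3 (green triangle) is the lowest green point for all but the red blood cell sum, where it is the highest.

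Other miRNAs linked to astrocytes or to gliogenesis did not share a direction. Of 10 listed, 9 were tested, 3 were higher, 4 were lower and 2 did not pass the test, with a median log2 fold change of -0.14 beside -0.06 over all 256 miRNAs. Among all tested miRNAs 22.3% were higher and 25.8% were lower. MiR-21a-5p, which rises in reactive astrocytes, stood at 27881 ± 10485 CPM in astrocyte EVs and 3719 ± 792 CPM in NSC EVs (SD, n = 3 each), which is 2.91 ± 0.43 (SE) as log2 fold change (edgeR adjusted p = 0.00271). MiR-23a-3p (3.52, edgeR adjusted p = 0.00695) and miR-23b-3p (3.38, adjusted p = 0.00384) were the other higher members, with values close to those of miR-29a-3p. The abundant miR-181a-5p, known to restrain inflammatory responses of astrocytes, was lower (-1.47, edgeR adjusted p = 0.0321), as was miR-26b-5p (-1.03, adjusted p = 0.0296). MiR-26a-5p, broadly expressed in glia, stood at 26991 ± 1542 and 29815 ± 3985 CPM (SD, n = 3 each), and its log2 fold change of -0.14 did not pass (edgeR adjusted p = 0.709). The 4 lower calls depended on the libraries used: without A1 or N3 they fell to 0, and without A2, N1 or N2 to 1. Without A3 the list again had 3 higher and 4 lower.

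Fragments on genes whose mRNAs miR-29 is known to repress were counted on 28 sense RefSeq rows, each spanning a gene. Whether the counts lie in exons is not stated in what was read here, so mRNA fragments cannot be told apart from intronic reads. In a fit of 41308 non-hairpin rows, in which 5.54% were higher and 4.24% lower (6.02% and 3.39% of sense RefSeq rows), 3 of the 28 were higher, 0 were lower and 25 did not pass the test by edgeR. At an unadjusted edgeR p under 0.05 there were 8 of 28, beside 5116 of all 17739 sense RefSeq rows tested, which is a like share. Their median log2 fold change was 0.13 beside 0.03 over all sense RefSeq rows. These are fragments in EVs and not mRNA levels of a cell that received them.

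Of 9 extracellular matrix genes 2 were higher. Sparc, which encodes a collagen-binding matrix protein (chromosome 11, 55394501 to 55420080), had 613, 820 and 299 counts in A1 to A3 and 61, 53 and 34 in N1 to N3, which is 3.56 ± 0.70 (SE) as log2 fold change (edgeR adjusted p = 0.0244). Col1a2, a chain of type I collagen and a marker of mesenchymal cells (chromosome 6, 4505697 to 4541543), had 583, 686 and 684 counts against 66, 156 and 81 (2.54, SE 0.49, adjusted p = 0.0237). Fbn1, the fibrillin row with the most counts of this group, had a log2 fold change of 0.18 (edgeR adjusted p = 0.834). For Sparc and Col1a2, A3 was the lowest of its group after scaling (2.12 and 4.85 counts per 1000000).

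Of 6 genes of DNA methylation and demethylation 1 was higher. Dnmt3b, a de novo DNA methyltransferase (chromosome 2, 153649449 to 153687730), had 2376, 2413 and 1093 counts in A1 to A3 and 94, 198 and 181 in N1 to N3, which is 3.67 ± 0.71 (SE) as log2 fold change (edgeR adjusted p = 0.0238). Scaled, these were 56.8, 38.5 and 7.75 against 1.65, 3.14 and 3.28 counts per 1000000, so that A3 was again nearest to NSC EVs. Dnmt3a, the other de novo enzyme, ran from 10.8 to 11.4 counts per 1000000 in astrocyte EVs and from 6.35 to 6.92 in NSC EVs, without overlap, and did not pass the test (0.75, edgeR adjusted p = 0.111). Tet2, which oxidizes methylcytosine, had a log2 fold change of 0.11 (adjusted p = 0.844).

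None of the 6 cell death genes passed edgeR's test. Bcl2 and Bmf, both lower in astrocyte EVs, had an unadjusted p under 0.05, as did 5116 of 17739 sense RefSeq rows. Bcl2, which protects mitochondria from BH3-only proteins, had 374, 752 and 1066 counts in astrocyte EVs and 850, 5201 and 1240 in NSC EVs, which is -2.07 ± 0.63 (SE) as log2 fold change (edgeR adjusted p = 0.0742). The BH3-only gene Hrk had 0.56 (adjusted p = 0.448). The other BH3-only genes listed were Bmf (-1.58, edgeR adjusted p = 0.163, with overlapping groups), Bbc3 (-0.11) and Bcl2l11 (0.26). Of the 7 other targets 0 passed, with 0 at an unadjusted p under 0.05. Among these Cdk6, a cell cycle kinase, had 0.05 (edgeR adjusted p = 0.941) and Bace1, the beta-secretase, 0.77 (adjusted p = 0.346).

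The calls of target fragments depended on which libraries were used. The number higher was 0 without A1, A2 or N3, 1 without N1, 2 without N2 and 3 without A3. Calls over all non-hairpin rows shifted in the same fits. There 0 rows were higher without A1 or A2, 4 without N3, 971 without N1, 940 without N2 and 2786 without A3, beside 2290 with all libraries. Without TMM the median of all rows moved from -0.04 to -0.54, Sparc (2.75) and Dnmt3b (2.82) were still called higher, Bcl2 was called lower, and Col1a2 had 1.79 (edgeR adjusted p = 0.0746).

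**Figure D5:**
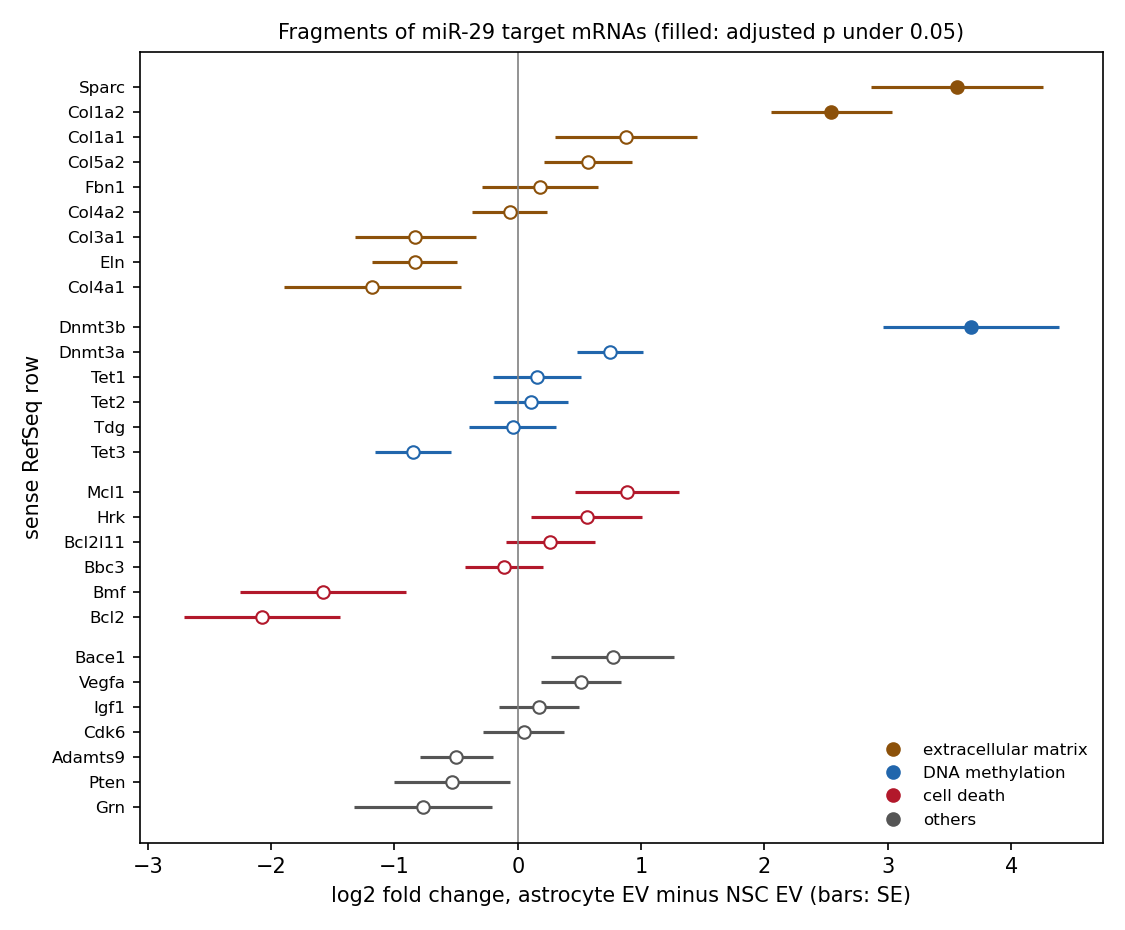
Log2 fold change, astrocyte EVs minus NSC EVs, of fragments on 28 rows of miR-29 target genes in 4 role groups, with bars of 1 SE and filled points at an adjusted p under 0.05. Sparc, Col1a2 and Dnmt3b are filled and lie between 2.54 and 3.67, and the other genes scatter on both sides of 0.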

How the data were processed

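Small RNA of astrocyte EVs and NSC EVs was measured in 3 libraries each. The authors deposited whole-number counts per annotated row without normalization. The tools Bowtie, Bowtie2, cutadapt, bedtools, SAMtools, FastQC and DESeq and the build mm10 appear in the submitters' processing notes, without versions or roles. Strand handling during counting is not stated there. The deposited tables of group means, fold changes and adjusted p-values were not used.

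Mature miRNA rows were tested by the quasi-likelihood method of edgeR 4.0.16 (R 4.3.3), with TMM scaling, filterByExpr defaults and group as the only term. Values were called below 0.05 after Benjamini-Hochberg adjustment. All non-hairpin rows were fitted separately for mRNA fragments. The SE is the log2 fold change divided by the root of its F statistic. Scripts were tested on simulated data. DESeq2 1.42.0, other size factors and library sizes, other filters, hairpin rows, each library left out, a replicate block and removal of red blood cell and mesenchymal miRNAs were alternatives. Removal of either set alone, and most scaling alternatives for the astrocyte-linked list, were added after seeing the data. Python 3.11.15 and scipy 1.17.1 were used for exact tests and intervals, in which mature counts were the denominator.

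The members and lists were chosen with earlier results of these data known. Named were the members, the other arms and hairpins of their loci, up to 4 abundant members of the astrocyte-linked list, called target rows and up to 2 abundant ones per role, and the 3 miRNAs most correlated with miR-29a-3p. MiR-23a-3p, miR-23b-3p, Dnmt3a, Bmf, Bbc3, Bcl2l11 and marker genes were named after their values were seen.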

Additional observations from a re-analysis of the deposited data

How the results depend on the processing

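The direction of miR-29a-3p, miR-29b-3p and miR-29b-1-5p was the same in every setting run. When library sizes came from the non-hairpin rows, which moved the median of all tested miRNAs from -0.06 to -0.92, miR-29a-3p had a log2 fold change of 2.51 (edgeR adjusted p = 0.0592) and miR-29b-3p of 2.41 (adjusted p = 0.0570), miR-29b-1-5p was not tested, 0 members were called, and 32 miRNAs were higher and 96 lower beside 57 and 66. Leaving out each library in turn gave 2.96 to 4.33 for miR-29a-3p, 2.81 to 3.64 for miR-29b-3p and 3.36 to 7.21 for miR-29b-1-5p (the highest against 0 counts in NSC EVs), 0 to 3 members called, 0 to 4 astrocyte-linked miRNAs lower, 0 to 3 target rows higher and 0 to 1 lower, 34 to 69 miRNAs higher and 45 to 93 lower, and 0 to 2786 non-hairpin rows higher and 0 to 1572 lower. The ratio of miR-29b-3p to miR-29a-3p, a log2 difference of -0.07, ran from -0.90 to 0.40, and that of miR-29b-3p to miR-29b-1-5p, -0.67, from -1.14 to 0.26. With the replicate number as a block, miR-29b-3p had 3.48 (adjusted p = 0.0720) and miR-29b-1-5p 4.29 (adjusted p = 0.0757), 1 member was called, 2 astrocyte-linked miRNAs were lower, 2 target rows were higher (Dnmt3b had 3.36, adjusted p = 0.0705) and 668 non-hairpin rows were higher and 577 lower beside 2290 and 1750. Libraries of the same number deviated together at correlations of 0.0455 to 0.0997, below the 0.1 that was required to treat them as paired. Each nevertheless correlated best with its own number, and whether they are paired cannot be told from 3 libraries per group. Without a filter 2 astrocyte-linked miRNAs were lower. Without TMM 1 target row, Bcl2, was lower, and 738 non-hairpin rows were higher and 3217 lower. The cause of these changes was not tested. Depth limits miR-29c-3p, with 0 to 12 counts per library, and the NSC EV values of both miR-29b arms, with 0 to 3. For miR-29c-3p the spread between A1 to A3 is a limit as well.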

Other observations

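The noncoding RNA A330023F24Rik, whose exon holds Mir29b-2 and Mir29c on chromosome 1, has a row of its own, chosen after its values were seen. Its counts were 44, 69 and 73 in A1 to A3 and 29, 57 and 44 in N1 to N3. The groups overlapped, and the fit over all non-hairpin rows gave 0.26 ± 0.43 (SE) as log2 fold change (edgeR adjusted p = 0.734). The counts of the mir-29c hairpin exceeded the sum of both its arms by 5 in N1 and by 1 in A1.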
